A study of Homo sapiens with 8 samples.

Results

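The stretch of 2q36 that holds *IRS1*, *RHBDD1*, *COL4A4*, *COL4A3* and *MFF* was examined in 4 human MB cell lines. It was taken as every stitched H3K27Ac region overlapping the window from 226000000 to 228000000 on chromosome 2 in GRCh38. This gave 25 regions in HD-MB03, 28 in MB002, 35 in D425 and 28 in UW228, so that 116 of 88550 regions were members. The window was chosen by its input signal, which was high in HD-MB03, and its input values, and the ratios of H3K27Ac to input that have them as denominator, are therefore given as a description.

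H3K27Ac, a histone mark of active enhancers and promoters, had been mapped by ChIP-seq. MB002, D425 and HD-MB03 (written HDMB03 in the labels) are G3-MB lines, and UW228 is labelled as SHH subtype. MB002 and HD-MB03 were grown in a tumor stem medium with growth factors, and D425 and UW228 in DMEM with serum. The labels name no treatment of these libraries. A single H3K27Ac library and a single input library stood for each line, so that the lines have no replicate spread, no test was run, and a difference between lines cannot be told apart from a difference between libraries. The values of UW228 also came from a later ROSE run than those of the other 3 lines. Input is sheared chromatin sequenced without the antibody, and its density follows how much DNA of a place the cells hold as well as how well that place is sheared, sequenced and mapped.

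*IRS1* encodes an adaptor that is phosphorylated by the insulin and IGF1 receptors and recruits PI3K. *RHBDD1* encodes a rhomboid intramembrane protease. *COL4A3* and *COL4A4* encode type IV collagen chains of specialised basement membranes, such as that of the kidney glomerulus, and are transcribed away from each other from a shared promoter stretch. *MFF* encodes an outer membrane protein that recruits DRP1 to mitochondria for fission. ROSE stitches neighbouring H3K27Ac peaks into regions, ranks them by signal and calls the top of the ranking super-enhancers (SEs), the rest being typical enhancers (TEs).

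The lines as a whole were alike in scale. The median region had an input density of 0.135 reads per bp, normalized to library size as are all densities here, in MB002, with 0.133, 0.118 and 0.154 in D425, HD-MB03 and UW228. The median ratio of H3K27Ac to input was 5.105, 4.96, 5.65 and 5.41, respectively. Among 6 G3-MB marker genes, an SE was assigned to 2 in HD-MB03, 3 in MB002, 3 in D425 and 0 in UW228, where 3.12%, 3.32%, 4.28% and 5.58% of all genes had one. Among 6 SHH-MB marker genes, the counts were 2, 0, 0 and 0, so that *GLI1* and *PTCH1* had an SE in HD-MB03 and none in UW228, the line labelled SHH, where 5 of the 6 had some region. The depth of the libraries is unknown.

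The sequences at issue are shown first. The *IRS1* gene lies on the minus strand from 226731312 to 226799820. Its upstream stretch is given because the only SE of the window covers it. The 250 bases before the *IRS1* transcription start site (TSS), from RefSeq on GRCh38.p14 at chr2:226799821-226800070, read 5′ to 3′ on the minus strand, are printed with GGGCGG, the GC box bound by Sp1 family factors, in capitals.

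IRS1 upstream: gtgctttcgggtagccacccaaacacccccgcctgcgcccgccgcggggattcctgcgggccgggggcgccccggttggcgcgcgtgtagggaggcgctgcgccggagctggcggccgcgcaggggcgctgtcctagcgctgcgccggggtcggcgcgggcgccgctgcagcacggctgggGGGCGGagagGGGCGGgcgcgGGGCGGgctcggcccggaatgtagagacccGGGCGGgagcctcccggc

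This stretch was 80.8% G or C, held 39 CpG dinucleotides and held GGGCGG 4 times. GGGCGG on either strand was found in 45% of 35116 RefSeq promoter windows of 300 bases. CACGTG, the E-box bound by MYC among other factors, was not in the printed bases. It was found once in the 300-base *IRS1* window, which adds the first 50 transcribed bases, at bases 36 to 41 counted from the TSS, and in 7.26% of all windows. Neither TAATCC, the homeodomain core bound by OTX2 and CRX, nor TGANTCA, the AP-1 word, was found there, against 6.36% and 7.71% of all windows.

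The central 300 bases of 3 HD-MB03 regions with a single peak are given from hg38, plus strand. They lie in the raised stretch described next and were picked after their values were seen, from the high-ranked regions whose centre held no untranslated exon of any GENCODE transcript, to show the downstream side of *IRS1* and both collagen genes. The *COL4A3* region at rank 2575 was passed over because 150 of its central bases are annotated as untranslated. Capitals mark TAATCC or its complement GGATTA in the first and the third, and protein-coding bases in the second. The first lies downstream of *IRS1* at chr2:226623600-226623899. The second lies within *COL4A4* at chr2:227054417-227054716 and the third within *COL4A3* at chr2:227252854-227253153.

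Rank 2185: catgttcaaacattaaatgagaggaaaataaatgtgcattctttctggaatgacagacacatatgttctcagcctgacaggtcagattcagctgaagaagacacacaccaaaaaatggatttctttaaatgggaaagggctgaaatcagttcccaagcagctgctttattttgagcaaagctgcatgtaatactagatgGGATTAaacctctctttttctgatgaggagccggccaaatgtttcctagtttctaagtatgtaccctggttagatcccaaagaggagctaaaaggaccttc
Rank 3865: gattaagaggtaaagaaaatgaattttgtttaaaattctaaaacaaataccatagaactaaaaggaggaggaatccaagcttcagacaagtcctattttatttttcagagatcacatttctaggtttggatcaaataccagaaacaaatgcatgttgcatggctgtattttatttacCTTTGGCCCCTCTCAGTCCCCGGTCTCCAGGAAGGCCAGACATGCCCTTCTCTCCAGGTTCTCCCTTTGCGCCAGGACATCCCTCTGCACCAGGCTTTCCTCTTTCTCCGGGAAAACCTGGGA
Rank 4309: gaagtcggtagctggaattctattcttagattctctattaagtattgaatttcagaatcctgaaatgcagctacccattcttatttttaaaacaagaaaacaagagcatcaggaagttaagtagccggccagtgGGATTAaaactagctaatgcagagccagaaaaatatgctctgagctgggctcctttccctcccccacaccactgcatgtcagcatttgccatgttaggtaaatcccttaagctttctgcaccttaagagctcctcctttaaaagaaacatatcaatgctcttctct

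The second holds 123 coding bases of *COL4A4*. Of the 14 HD-MB03 regions of the raised stretch with a single peak and at least 300 bp, 7 had TAATCC on either strand in their central 300 bases, against 17.7% of the 8340 such regions of the line. CACGTG was found in 0 of the 14 against 4.48%, TGANTCA in 1 against 10.4%, and GGGCGG in 1 against 13.8%. These shares were not matched for base content. The HD-MB03 regions of the raised stretch had a median G and C content of 43.1%, below the 47.1% of the line, so nothing is read from the motif counts.

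In HD-MB03 the regions called over and around *IRS1*, *RHBDD1*, *COL4A4* and *COL4A3* had an input density of about 5 times the line median, whereas the median region called in the same span was near the line median in the other 3 lines. Input is known only where a region was called, which in HD-MB03 leaves *MFF* without a value. Relative input, the input per bp of a region divided by the median over all regions of its line, was at or over 5 in 8 HD-MB03 regions of the window, whereas 0.373% of all 15286 HD-MB03 regions reached 5. The threshold belongs to the choice of the window and the comparison is a description. The lowest of the 8 stood at 5.06 and the next region at 4.996. The span from the first to the last of them ran from 226622754 to 227466994, from 177 kb beyond the *IRS1* TSS on the downstream side of the gene to 667 kb on its upstream side. Gaps of up to 1000 kb between such regions were bridged. The span was 844 kb long and held 20 HD-MB03 regions, all with a relative input of at least 3. With gaps of at most 100 kb it ended within *IRS1* after 151 kb and 5 regions, and left out *RHBDD1*, *COL4A4* and *COL4A3*.

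In HD-MB03 the relative input of these 20 regions ran from 3.34 to 6.20 with a median of 4.97. The 12 regions of at least 1 kb kept to 4.42 to 5.85, and the 8 shorter ones covered 3.34 to 6.20. Over the same span the median relative input was 0.979 over 15 regions in MB002, 1.06 over 14 in D425 and 0.914 over 14 in UW228. The highest single value in these 3 lines was 2.34, in D425 within *COL4A3*, so the lines did not overlap with HD-MB03 there. Over the *IRS1* TSS the input density was 0.587 reads per bp in HD-MB03, 0.200 in MB002 and 0.144 in D425.

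**Figure D1:**
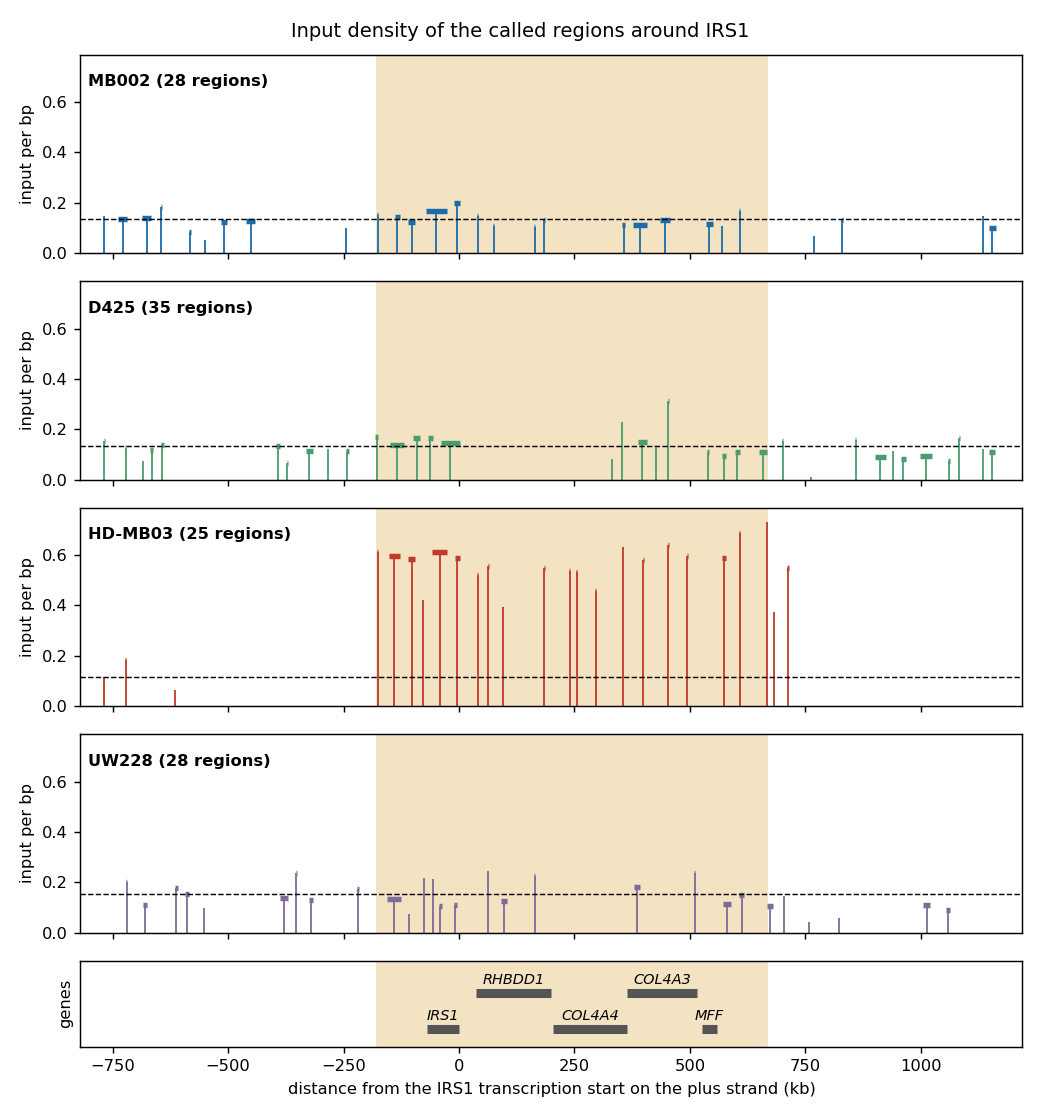
Input per bp (y axis, reads per bp normalized to library size) of every called region in the window against its distance from the IRS1 transcription start in kb (x axis), 1 panel per line, with bars as long as the regions, the line median dashed, the raised HD-MB03 span shaded and the 5 genes below. The 20 shaded HD-MB03 regions lie between 0.393 and 0.730, and no region of the other lines in the window exceeds 0.311.

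The edges of the raised stretch could be placed only between called regions. To its left, 3 HD-MB03 regions of the window had a relative input of 0.992, 1.56 and 0.555, and the nearest lay 437 kb away. To its right, 2 more regions within *AGFG1* stood at 3.16 and 4.65, which took the raised stretch to 227513653. No HD-MB03 region was called in the remainder of the window, where MB002 had 4, D425 had 10 and UW228 had 4. The next HD-MB03 region lay at 228328769, 815 kb away, with a relative input of 0.0161, and it was the only HD-MB03 region in the 3 Mb past 227513653, against 17 in MB002, 35 in D425 and 26 in UW228, lines with 26072, 26317 and 20875 regions in all where HD-MB03 had 15286.

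The input level also differed between both sides of the stretch in HD-MB03. Over regions of at least 500 bp, the median relative input was 1.57 in the 10 Mb to the left (43 regions, quartiles 1.37 and 1.71) and 0.503 in the 10 Mb to the right of 227513653 (29 regions, quartiles 0.386 and 0.643). The left median was 3.11 times the right one in HD-MB03, and 1.03, 1.07 and 1.09 times in MB002, D425 and UW228. From 10 to 20 Mb to the left the HD-MB03 median was 0.858.

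In bins of 5 Mb along chromosome 2 the HD-MB03 median stayed between 0.615 and 1.21 in the 40 bins before 215 Mb, was 1.57 and 1.54 in the next 2 bins, 4.66 in the bin with the stretch, and 0.559 and 0.401 in the 2 bins beyond 230 Mb with at least 5 regions. In the bins from 215 to 225 Mb, MB002 lay at 1.01 and 1.09, and the values of D425 and UW228 were between 0.819 and 0.898. From 230 Mb to the end of the chromosome the 3 other lines lay between 0.749 and 1.11. The stretch thus sits where the HD-MB03 input changes from above to below its own median.

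**Figure D2:**
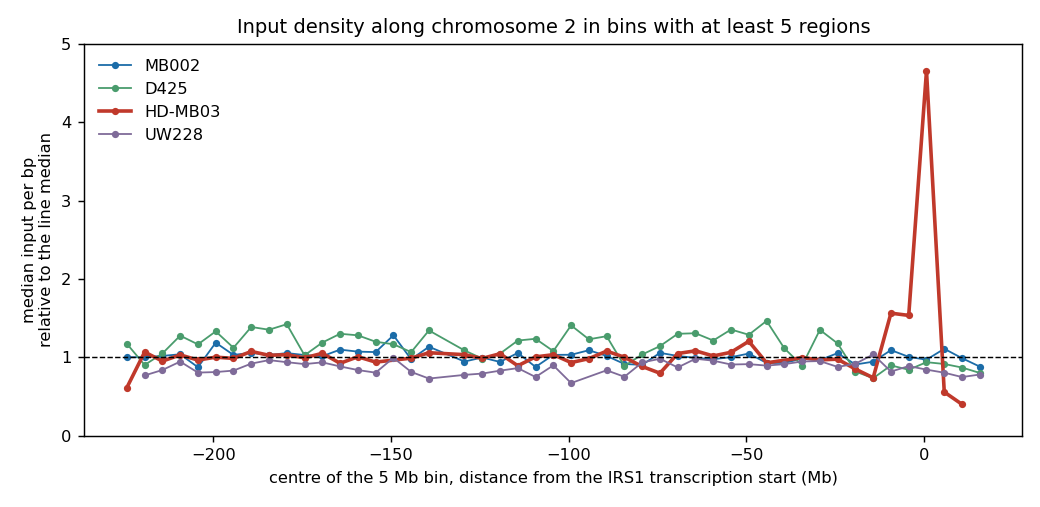
Median relative input (y axis, input per bp over the line median) of regions of at least 500 bp in 5 Mb bins of chromosome 2 against the distance of the bin centre from the IRS1 transcription start in Mb (x axis), 1 line per cell line, for bins with at least 5 regions. HD-MB03 rises to 1.57 and 1.54, peaks at 4.66 in the bin of the 5 genes and drops to 0.559 and 0.401, while the bins of the other lines lie between 0.673 and 1.47.

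The 20 HD-MB03 regions had a median G and C content of 43.1% (quartiles 40.03% and 48.1%), lower than the 47.1% of all HD-MB03 regions. The 5534 other HD-MB03 regions with a content between these quartiles had a median relative input of 1.03, with 95% of them at or under 1.79.

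H3K27Ac density in the raised span had a higher median in HD-MB03 than in the other lines. The 20 HD-MB03 regions had a median of 1.58 reads per bp (0.857 to 5.59), beside 0.622 over the whole line. Regions are called over input, so where input is high only regions of high H3K27Ac can be called, and with a span input of 0.393 to 0.730 reads per bp the height of these 20 regions over the line median follows in part from how they were chosen and called. The span medians were 0.694 in MB002 (0.258 to 2.23), 0.505 in D425 (0.201 to 1.49) and 0.588 in UW228 (0.247 to 2.11). The ranges of the 4 lines overlapped.

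**Figure D3:**
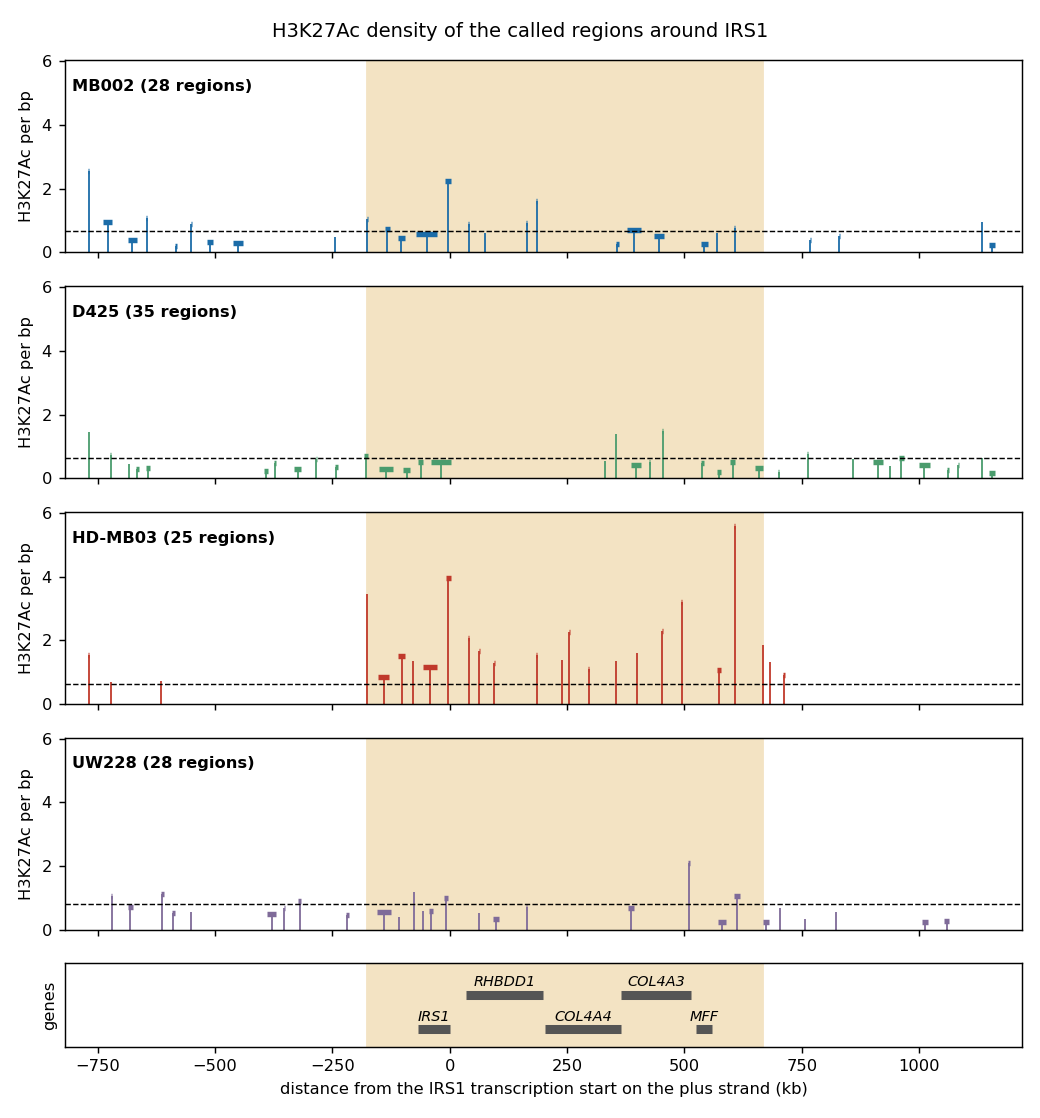
H3K27Ac per bp (y axis, reads per bp normalized to library size) of every called region in the window against its distance from the IRS1 transcription start in kb (x axis), drawn as for input. In the shaded span, where input alone reaches 0.393 to 0.730 in HD-MB03 and regions are called over it, the HD-MB03 regions run from 0.857 to 5.59, and the span medians of the other lines are 0.694, 0.505 and 0.588.

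Where an HD-MB03 region overlapped one of another line, both densities were set side by side. H3K27Ac was higher in HD-MB03 in 11 of 12 pairs with MB002, 10 of 10 with D425 and 9 of 9 with UW228, by a median of 2.34-fold, 5.11-fold and 3.88-fold. Over all overlapping pairs of the genome it was higher in HD-MB03 in 45%, 44.2% and 41.1%, and the medians were 0.918-fold, 0.902-fold and 0.843-fold. Since the HD-MB03 region of each pair in the span had to be called over the raised input, this comparison is given as a description. The regions of a pair differed in length, the partner being longer than the HD-MB03 region in 7 of 12, 9 of 10 and 5 of 9 pairs, and a long stitched region takes in the gaps between its peaks. Pooled over all regions of the span, H3K27Ac density in HD-MB03 was 2.34-fold that of MB002, 3.87-fold that of D425 and 2.83-fold that of UW228. Pooling keeps the same limits of calling and length. It covered 107 kb in HD-MB03, 166 kb in MB002, 168 kb in D425 and 119 kb in UW228. Input, by which the span was chosen, was higher in all its pairs, by medians of 4.17-fold, 4.09-fold and 5.19-fold, and in 33.2%, 26.6% and 37.9% of all overlapping pairs. The ratio of H3K27Ac to input was 0.636-fold that of MB002, 0.957-fold that of D425 and 0.842-fold that of UW228, with HD-MB03 higher in 1 of 12, 5 of 10 and 4 of 9 pairs. Over all overlapping pairs the ratio was higher in HD-MB03 in 56.1%, 62.4% and 49.1%, with medians of 1.14-fold, 1.27-fold and 0.984-fold, and the high input that chose the span lowers the ratio by its construction.

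The ratio of H3K27Ac to input in the HD-MB03 span had a median of 2.88, and 18 of 20 regions lay under the line median of 5.65. It was under 4 in 15 of the 20, beside 28.9% of the 15181 HD-MB03 regions with input above 0. As the span was chosen for its high input, which is the denominator, nothing is read from this comparison with the line. In MB002 5 of 15, in D425 7 of 14 and in UW228 7 of 14 regions of the span were under 4, beside 34.1%, 35% and 28.1% of all regions of these lines with input above 0, and their median ratios were 5.46, 3.83 and 4.02.

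**Figure D4:**
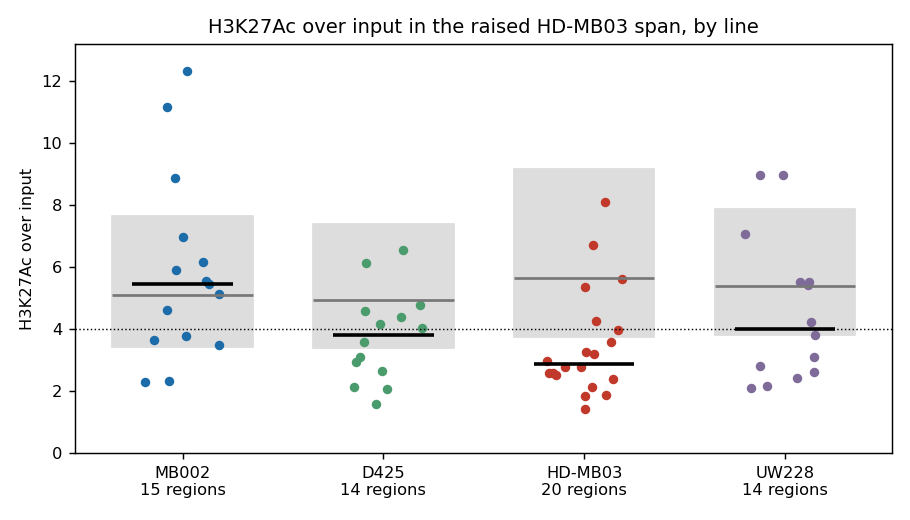
H3K27Ac over input (y axis) of each region in the raised span, 1 point per region by line (x axis), with the span median as a black bar, the quartiles and median of all regions of the line in grey and a ratio of 4 dotted. In HD-MB03 15 of 20 points lie under 4, with a span median of 2.88 against 5.65 for the line.

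*IRS1* held the only SE of the window. The HD-MB03 region from 226790986 to 226801916, 10930 bp with 2 peaks, overlapped the *IRS1* TSS and 3726 coding bases of its first exon. It ranked 122 of 15286 and was called as SE, as were 1.98% of the HD-MB03 regions. Its H3K27Ac density was 3.94 reads per bp and its ratio to input 6.71, one of the 2 ratios of the span above the line median. The net signal, H3K27Ac minus input over the length, was 36678, and the edge of the SE class in HD-MB03 lay between 23019 and 22917.

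The same place was a TE in the other 3 lines. In MB002 the region from 226789354 to 226801984 ranked 548, with 2.23 H3K27Ac reads per bp and a ratio of 11.2, the higher of the 2 ratios. In D425 the region from 226759859 to 226801711 ranked 996, with 0.520 reads per bp over 41852 bp and a ratio of 3.60. In UW228 the nearest region, from 226788486 to 226795295, stopped 4525 bp short of the TSS and ranked 4538, with 1.00 reads per bp and a ratio of 8.99. No SE was called in the window in these lines, where 1.39% of MB002, 1.64% of D425 and 3.61% of UW228 regions were SEs.

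The rank of the *IRS1* region in HD-MB03 moved with the treatment of input. Without input subtraction it ranked 112, and after division of the net signal by the relative input of the region it ranked 1726, where the recomputed cutoff left 379 SEs. Division by the median relative input within 500 kb gave rank 1703 with 1048 SEs. The window was chosen for its raised HD-MB03 input, so the fall under both divisions follows from that choice and nothing is read from it. In MB002 the corresponding ranks were 629, 925 and 438, and under both divisions the region passed the recomputed cutoff, with 964 and 846 SEs. With net signal undivided, the recomputed cutoff left 355 SEs in MB002 and the region ranked 548. At ranks 925 and 438 it thus passed because the cutoff left more SEs. Ranked by net signal per bp, the region was 236th in HD-MB03 and 640th in MB002.

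**Figure D5:**
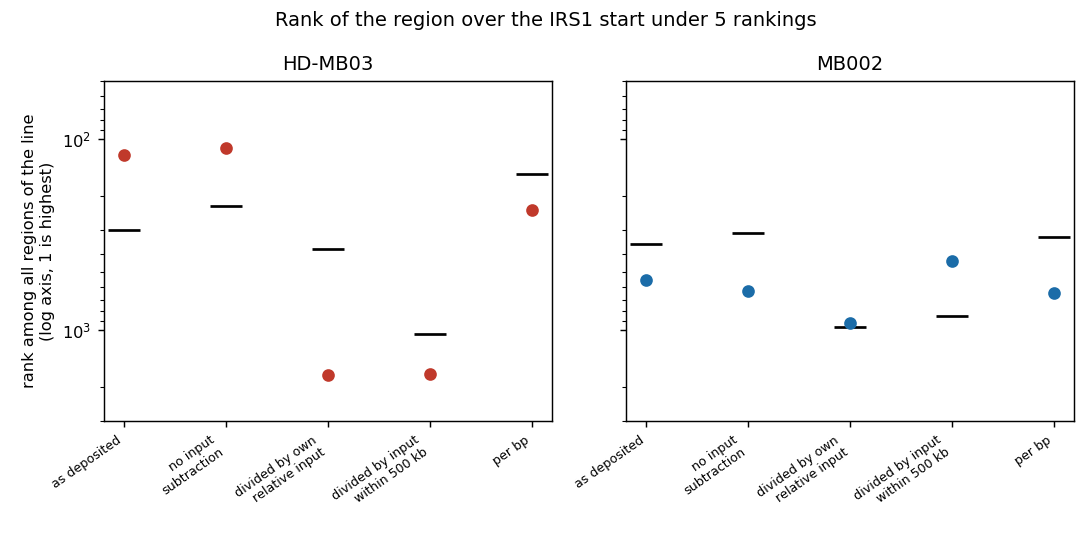
Rank of the region over the IRS1 start among all regions of the line (y axis, log scale, 1 highest) under 5 rankings (x axis), for HD-MB03 and MB002, with black bars at the number of SEs given by the recomputed cutoff, so that a point above its bar passes it. HD-MB03 passes at rank 122 and 112 and fails at 1726, 1703 and 236, and MB002 passes at 925 and 438. The window was chosen for its raised HD-MB03 input, so the HD-MB03 ranks 1726 and 1703, after division by input, follow from that choice.

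Within the *IRS1* body and downstream of it, HD-MB03 had 3 further high-ranked regions. The intronic region from 226742034 to 226773668 ranked 575, with 1.15 H3K27Ac reads per bp and a ratio of 1.89. The intergenic regions from 226690012 and from 226647792 ranked 837 and 2019, with ratios of 2.59 and 1.44. They were 31.6, 14.4 and 23.6 kb long, and each overlapped a region in all 3 other lines. The intronic one became the second SE of the window when input was not subtracted. In MB002 the region over the *IRS1* body, from 226728417 to 226773145, ranked 924 with a ratio of 3.50, and in UW228 the best rank of the window, 2018, fell to the intergenic region from 226644377 to 226674286.

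*RHBDD1* starts in RefSeq 339 bp from the *IRS1* TSS and in GENCODE 35761 bp from it, so the *IRS1* SE covers its RefSeq start and lies within 50 kb of its GENCODE start. None of the 4 lines had a region over its GENCODE TSS. As promoter-flanking regions were excluded according to the methods, H3K27Ac may still have been present there. Over the GENCODE body of *RHBDD1*, from 226835581 to 226999215, HD-MB03 and MB002 each had 4 regions, UW228 had 3 and D425 had 0. Their pooled H3K27Ac density was 1.71 reads per bp in HD-MB03, 1.04 in MB002 and 0.380 in UW228, with ratios to input of 3.29, 8.47 and 2.65. The best of them ranked 4536 in HD-MB03, 7920 in MB002 and 8529 in UW228.

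*COL4A4* and *COL4A3* start 171 bp apart, and no line had a region over that shared stretch. Promoter-flanking regions were excluded according to the methods, so this absence does not show that the stretch lacked H3K27Ac. The nearest region lay 4310 bp from the *COL4A4* TSS in MB002, and 10298 bp in HD-MB03, 10701 bp in D425 and 15178 bp in UW228. Over the *COL4A4* body, from 227002714 to 227164453, HD-MB03 had 4 regions, MB002 1, D425 2 and UW228 0. The pooled H3K27Ac density was 1.72 reads per bp in HD-MB03 with a ratio of 3.27, 0.258 in MB002 with 2.303, and 0.940 in D425 with 6.27. The HD-MB03 regions were short, 3.55 kb in all, and the best ranked 3865.

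Over the *COL4A3* body, from 227164624 to 227314792, MB002 had the greatest called length, 53.0 kb in 2 regions. Their best rank was 959, with H3K27Ac at 0.616 reads per bp and a ratio of 5.08. D425 had 23.2 kb in 3 regions, with a best rank of 3874, 0.494 reads per bp and a ratio of 3.06. HD-MB03 had 3.97 kb in 3 regions, with a best rank of 2575, 2.59 reads per bp and a ratio of 4.24. UW228 had 15.3 kb in 2 regions, with a best rank of 4327, 0.935 reads per bp and a ratio of 4.91. HD-MB03 thus had the highest density and the least called length of the 4 lines. The 2 MB002 regions joined 11 and 6 peaks, and the 3 HD-MB03 regions had 1 peak each. Called length takes in the gaps between stitched peaks, so it is not the length of acetylated sequence, and it lowers the density of long regions.

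*MFF* lies inside the raised span, and HD-MB03 had no region over its body, from 227325151 to 227357833, nor had UW228. MB002 and D425 each had 1, at rank 7847 with 0.275 H3K27Ac reads per bp and at rank 8450 with 0.478. The nearest HD-MB03 region was 30479 bp from the *MFF* TSS and the nearest in UW228 14074 bp.

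Past *MFF*, the HD-MB03 region from 227406389 to 227408483 had the highest H3K27Ac density of the window, 5.59 reads per bp, a ratio of 8.11 and rank 1171. The overlapping regions had 0.767 reads per bp in MB002, 0.500 in D425 and 1.05 in UW228, with ratios of 4.63, 4.58 and 7.06. A region was called here in all 4 lines, and the ratio in HD-MB03 was higher than in each of the others. The HD-MB03 region held 1 peak over 2094 bp and the MB002 partner 2 peaks over 1796 bp. The partners of D425 and UW228 stitched 9 and 4 peaks over 10672 and 11513 bp. Their densities and ratios thus take in gaps and are not over the same bases. UW228 had the highest net signal, 10419, against 10253 for HD-MB03, with D425 at 4168 and MB002 at 1080. Input was 0.689 reads per bp in HD-MB03 and 0.109 to 0.166 in the other lines.

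The other protein-coding genes of the window were *TM4SF20*, *AGFG1*, *SLC19A3*, *CCL20*, *DAW1*, *SPHKAP* and several *SCYGR* genes. Regions over a TSS of these were found at *TM4SF20* with *SCYGR1* and at *AGFG1* in UW228, at *SLC19A3* in D425, and at *CCL20*, a chemokine, in D425 and UW228. The D425 regions at *SLC19A3*, a thiamine transporter, and *CCL20* ranked 1973 and 2416, the next in the window after the *IRS1* region of that line, and were followed by an intergenic region from 227756029 to 227767145 at rank 3241 with a ratio of 7.76. In MB002 the high-ranked regions not yet named were an intergenic one from 226062292 to 226080130, at rank 1294 with a ratio of 6.99, and one in *COL4A3* from 227234827 to 227256863, at rank 2725 with a ratio of 3.80. In UW228 the region at 227406363 ranked 2633, and intergenic regions from 226411535 and from 226183983 ranked 4176 and 4243, with ratios of 3.57 and 6.44.

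Of the 20 HD-MB03 regions of the span, 6 overlapped a region in all 3 other lines, as did 15.0% of all HD-MB03 regions. A further 5 overlapped none, against 25.4% of all HD-MB03 regions. Of these 5, 3 lay in *COL4A4*, 1 in *COL4A3* and 1 downstream of *IRS1*. They were 585 to 1819 bp long, ranked 2575 to 9633, and had ratios of 2.40 to 5.35. The share with no counterpart in the span was close to that of the line.

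Summed over the window, net signal was 117284 in HD-MB03, 129750 in MB002, 88230 in D425 and 90658 in UW228. On the log2 scale HD-MB03 differed by -0.15 from MB002, 0.41 from D425 and 0.37 from UW228. None of these directions held under every alternative, since the difference became 0.15 from MB002 without input subtraction, and -2.02 from D425 and -1.98 from UW228 after division by the relative input of each region. The window was chosen for its raised HD-MB03 input, so the drop on division follows from that choice and nothing is read from it. Under the alternatives without division, the differences from D425 and UW228 kept their sign. Called length was lowest in HD-MB03, with 115 kb there and 262, 307 and 206 kb in MB002, D425 and UW228. It was also lowest over the genome, and the window took 0.137% of the called length of HD-MB03, 0.165% in MB002, 0.195% in D425 and 0.138% in UW228. The H3K27Ac density pooled over the window was 1.599 reads per bp in HD-MB03, and 0.630, 0.413 and 0.575 in MB002, D425 and UW228. Most of the HD-MB03 regions pooled here were called over the raised input.

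By the ROSE rule of gene assignment, which takes genes overlapping a region, with a TSS within 50 kb, or nearest to its centre, 2 of the 5 genes, *IRS1* and *RHBDD1*, were SE-associated in HD-MB03 and 0 of 5 in the other lines. Both calls came from the one region at the *IRS1* TSS. Among all genes, 3.12% were SE-associated in HD-MB03, 3.32% in MB002, 4.28% in D425 and 5.58% in UW228.

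Other genes of these pathways are given by counts, to be read beside the shares of all genes just given. Of 19 insulin and IGF signalling genes, 2 were SE-associated in HD-MB03, 1 in MB002, 2 in D425 and 4 in UW228. *SHC1*, another adaptor of receptor signalling, was among them in MB002, HD-MB03 and UW228, *PDPK1*, a kinase downstream of PI3K, in D425 and HD-MB03, *INSR*, the insulin receptor, in D425, and *IGF1R*, the IGF1 receptor, in UW228. *IRS2*, the paralog of *IRS1*, had a best rank of 3495 in D425, with 8039 for HD-MB03 and 7589 for UW228, and no region in MB002.

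Of 13 type IV collagen and basement membrane genes, 0 were SE-associated in HD-MB03, 1 in MB002, 2 in D425 and 3 in UW228. *COL4A2*, a chain of the widespread type IV collagen, was among those of UW228, and the laminin chain *LAMB1* among those of MB002, D425 and UW228. Of 8 mitochondrial fission and fusion genes, 0 were SE-associated in each line. Of 11 rhomboid family genes, 0 were SE-associated in HD-MB03 and UW228 and 1 in each of MB002 and D425.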

How the data were processed

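H3K27Ac ChIP-seq and input libraries of 4 lines were used. Reads had been aligned by the authors with Bowtie 2 2.3.0 on GRCh38, converted with SAMtools 1.9, filtered with sambamba, peaks called with MACS2 2.2.6, and regions stitched and ranked with ROSE. The deposited signal of each region is read density, scaled to mapped reads, times length, with H3K27Ac and input in separate columns. The deposited score is the ROSE rank, where 1 is the highest, with the SE call. Promoter-flanking regions were excluded according to the methods, but some stitched regions span a TSS. Depth is unknown, so no counting error could be given.

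Calculations used pandas 2.3.3 and numpy 2.4.6 in Python 3.11.15, and plots matplotlib 3.10.9. Net signal was H3K27Ac minus input, floored at 0. Regions with an input of 0 (171 in MB002, 285 in D425, 105 in HD-MB03, 111 in UW228) have no ratio and no value after division by own input. The raised span joined regions at or over a relative input of 5 across gaps up to 1000 kb, a search tested on simulated data. The simulated blocks stood further above the threshold than this span, so that test does not show how well its edges were placed. Other cutoffs were recomputed with the ROSE tangent. Genes came from GENCODE 44 and RefSeq. Region coordinates are as the values give them, and on chromosomes of the reference none passed the end. Named genes were the 5 members, the other protein-coding genes of the window and those of fixed pathway lists, and the regions named were the 5 highest-ranked of each line, those at a member TSS and SEs. The regions printed as sequence, those without counterpart, those at the edges of the span and the best and nearest region of each member were added after values were seen. The window, members and lists were chosen with earlier results of these data known. Alternatives were other normalisers, thresholds, gaps, input corrections and overlap rules. A listed gene and a sequence are not reported here, and the gene was left out of its list.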

Additional observations from a re-analysis of the deposited data

How the results depend on the processing

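No paired analysis was possible because each line had 1 library of each kind, and for the same reason no replicate was left out. Depth is unknown, and densities exist only where a region was called, which limits each edge of the raised stretch to the gap between regions.

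The relative input of the raised HD-MB03 span, 4.97, became 4.30 with the mean as normaliser, 5.05 as summed input over summed length, 4.94 at a threshold of 3 and 5.06 with gaps of at most 100 kb, where the span ended within *IRS1* after 151 kb and 5 regions. Under the alternatives run for it, which left out the ranking per bp, the count of SEs in the window moved in MB002 and HD-MB03 and stayed at 0 in D425 and UW228. It became 2 in MB002 after division by own relative input and 3 after division by input within 500 kb, where the cutoff left 964 and 846 SEs in the line against 355 undivided. In HD-MB03 it became 2 without input subtraction and 0 under both divisions, as follows from dividing by a relative input near 5.

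The log2 ratio of summed signal against MB002, -0.15, was 0.15 without input subtraction, -0.0714 scaled to the median region signal, -2.25 divided by own relative input, -2.38 divided by input within 500 kb, 1.05 per bp and -0.0843 over overlapping regions. Against D425, in the same order, 0.41 became 0.54, 0.17, -2.02, -1.85, 1.83 and 1.04. Against UW228, 0.37 became 0.63, 1.37, -1.98, -1.90, 1.21 and 0.91. The sign reversed against MB002 without subtraction and per bp, and against D425 and UW228 under both divisions, where the drop follows from the choice of the window by its input.

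The best rank in the window without subtraction, divided by own input, divided by input within 500 kb and per bp went from 548 to 629, 628, 438 and 379 in MB002, from 996 to 840, 1029, 1020 and 1771 in D425, from 122 to 112, 1726, 1703 and 66 in HD-MB03, and from 2018 to 1819, 1828, 1801 and 562 in UW228. Per bp, the UW228 region in *COL4A3* at rank 562 and the HD-MB03 region at 227406389 at rank 66 passed the recomputed cutoff. The best region was not the same one under all rankings. The HD-MB03 ranks after both divisions follow from the choice of the window by its input.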
